A study of Homo sapiens with 4 samples.

Results

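Promoter-distal RNAPII-linked DNA loops with a G-quadruplex (G4) motif near the transcription start site were taken from the loop lists of mock-treated and PDS-treated HepG2 cells. A loop was included when exactly 1 of its anchors, the genomic segments that it joins, lay within 1 kb of a start of a protein-coding gene. In addition, the reference sequence within 1 kb of such a start had to hold 4 runs of 3 or more G separated by 1 to 7 bases, on either strand. This rule used gene positions and sequence only, and gave 13953 of 77862 distinct loops. The mock list held 12257 of them among 66417 loops (18.5%) and the PDS list held 2968 among 18778 (15.8%).

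POLR2A HiChIP-seq joins DNA segments that lie close to each other in nuclei and then enriches, with an antibody to the largest subunit of RNA polymerase II, the joined fragments that carry this protein. Each joined read pair is a paired-end tag (PET), and the value of a loop is its number of PETs. HepG2 is an established human hepatocellular carcinoma line. Cells received sterilized water (mock) or 20 µM pyridostatin (PDS), a small molecule that binds G4 structures, for 24 h, with 2 replicates per condition. There was 1 loop list per condition, which named no replicate, so the replicates were taken to be combined. The spread between replicates is therefore unknown, and no test between conditions could be made.

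A G4 forms when 4 runs of guanines on 1 DNA strand fold into stacked planes held by hydrogen bonds. Such sequences are common near the starts of human genes, mostly in GC-rich, CpG-dense promoters, and ligands such as PDS stabilise the folded form. RNAPII-linked loops join promoters to enhancers, gene bodies and other transcribed segments. A motif in the reference sequence shows only that the letters permit folding, and folding itself was not measured here.

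The lists count loops of at least 3 PETs, and where this was the only condition for listing, a loop that is not listed holds up to 2. Whether other conditions were applied is not given in the sources used here. Over all loops the PDS/mock ratio of loop numbers was 0.283. The depth of the libraries is not given in the sources used here, and the counts were not scaled for it, so a fall in loop number and a shallower PDS library cannot be told apart. Statements about the motif loops were therefore set against promoter-distal loops without a motif from the same lists. All intervals given are 95% intervals for counting error only, and they are too narrow in that loops share anchors. Of 11 hepatocyte marker genes, 10 had a loop at a start in each list. Of 8 markers of blood, nerve and muscle, 5 had one in mock and 1 after PDS. The share of all protein-coding genes with such a loop was not counted, so these numbers are no check of the cell line.

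The sequences that placed the strongest promoter anchors in the set are shown first. The stretches below are 120 bases each, 5′ to 3′ on the G-rich strand, with the motif in capitals, from the GRCh38 reference. They contain no annotated exon and belong to 6 of the 10 anchors with the most mock PETs, and to MDM2, an oncogene whose promoter G4 is well known.
CEBPB: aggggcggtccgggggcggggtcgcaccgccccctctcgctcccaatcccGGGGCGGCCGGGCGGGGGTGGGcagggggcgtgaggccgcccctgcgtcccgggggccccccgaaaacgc
TMEM114: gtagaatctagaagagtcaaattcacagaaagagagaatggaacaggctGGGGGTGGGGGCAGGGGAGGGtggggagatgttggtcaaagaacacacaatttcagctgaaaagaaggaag
TNFAIP3: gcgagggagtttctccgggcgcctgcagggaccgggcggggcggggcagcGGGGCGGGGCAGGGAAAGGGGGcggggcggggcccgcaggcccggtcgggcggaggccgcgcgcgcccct
EMP2: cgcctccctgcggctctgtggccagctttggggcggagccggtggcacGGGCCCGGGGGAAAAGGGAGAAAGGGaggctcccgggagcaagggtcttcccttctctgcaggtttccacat
ARHGAP5: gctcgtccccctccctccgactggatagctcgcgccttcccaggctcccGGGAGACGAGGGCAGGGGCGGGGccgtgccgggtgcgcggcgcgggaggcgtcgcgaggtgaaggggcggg
USP7: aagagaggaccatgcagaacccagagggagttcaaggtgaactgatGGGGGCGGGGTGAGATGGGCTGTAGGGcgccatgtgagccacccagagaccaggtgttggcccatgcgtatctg
MDM2: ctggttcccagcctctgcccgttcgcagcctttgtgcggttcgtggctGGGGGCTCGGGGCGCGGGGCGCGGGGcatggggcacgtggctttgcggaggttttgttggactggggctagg

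The CEBPB stretch lies at chr20:50190543-50190662 on the plus strand, with the motif shown, at chr20:50190593-50190614, 216 bp upstream of the nearest start, in an intron. Intron here means inside an annotated transcript of any gene and outside all exons, and the gene of that transcript was not recorded. The TNFAIP3 stretch is chr6:137867003-137867122 on the plus strand, and the motif shown, at chr6:137867053-137867074, sits 140 bp upstream of a start, also within an intron. In EMP2 the motif shown, 1 of 3 at this anchor, lies outside all transcripts, 240 bp upstream of the start, at chr16:10580872-10580897 within the stretch chr16:10580824-10580943, on the plus strand, which is opposite to the gene. The other EMP2 motifs are on the strand of the gene. The ARHGAP5 motif shown, 1 of 5, is 90 bp upstream of a start on the plus strand, at chr14:32076855-32076877 within chr14:32076806-32076925. TMEM114 and USP7 each held 1 motif, in an intron and downstream of the nearest start, by 700 bp at chr16:8571582-8571602 and by 361 bp at chr16:8936286-8936312, both on the minus strand. Their stretches are chr16:8571532-8571651 and chr16:8936239-8936358. MDM2 carries the motif shown at chr12:68808602-68808627 on the plus strand, within chr12:68808554-68808673, in an intron and 138 bp downstream of the nearest start.

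Motifs of the other strong anchors are shown alone, with the runs of G in capitals, to show how different in make-up the sequences that meet the rule are.
SLC23A2: GGGcaGGGGtcGGGGGcGGGG
ID2: GGGaagatGGGGGaGGGGaaGGGGG
CARMIL3: GGGacctaGGGccatgctGGGagaGGG
CRACDL: GGGtgcGGGaaGGGcaGGG
The SLC23A2 motif (chr20:5001586-5001606, minus strand) and the ID2 motif (chr2:8681700-8681724, minus strand) include runs of more than 3 G. Their spacers are 2, 2 and 1 bases and 5, 1 and 2 bases. The CARMIL3 motif (chr14:24051652-24051678, minus strand) and the CRACDL motif (chr2:98821823-98821841, minus strand) are built of runs of 3 G alone. All 4 lie in introns. The number of separate motifs at these promoters ranged from 1 at TMEM114 and USP7 to 26 at the anchor shared by CARMIL3, CPNE6 and NRL.

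The motif is common, which bounds how narrowly it selects promoters. Of 20033 protein-coding genes, 15370 (76.7%) had a motif within 1 kb of at least 1 start, as did 57.6% of all 146186 starts. Motif loops made up 55.5% of the promoter-distal loops in mock and 52.7% after PDS. They reached 7218 genes in all, of which 6737 had such a loop in mock, 2411 after PDS and 1930 in both.

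Motif loops were fewer after PDS, with 12257 in mock and 2968 in PDS, a ratio of 0.242 (0.233 to 0.252). Promoter-distal loops without a motif went from 9828 to 2662, a ratio of 0.271 (0.260 to 0.283). The ratio of these 2 ratios was 0.894 (0.843 to 0.948), so the relative number of motif loops after PDS was lower than that of loops without a motif by more than the counting error. These values depended on the PET minimum. With at least 4 PETs in both lists the ratio for motif loops was 0.160 and the ratio of ratios 0.816 (0.733 to 0.908), and with at least 5 they were 0.122 and 0.966 (0.805 to 1.16), an interval that includes 1. Against loops with starts at both anchors the ratio of ratios was 0.957 (0.899 to 1.02), an interval that includes 1. Against loops with a start at neither anchor it was 0.789 (0.754 to 0.826). The plot of loop ratios by class shows that the motif loops stood lowest of the 4 classes, and that the gap to the loops that touch no start was wider than the gap to the other promoter loops.

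**Figure D1:**
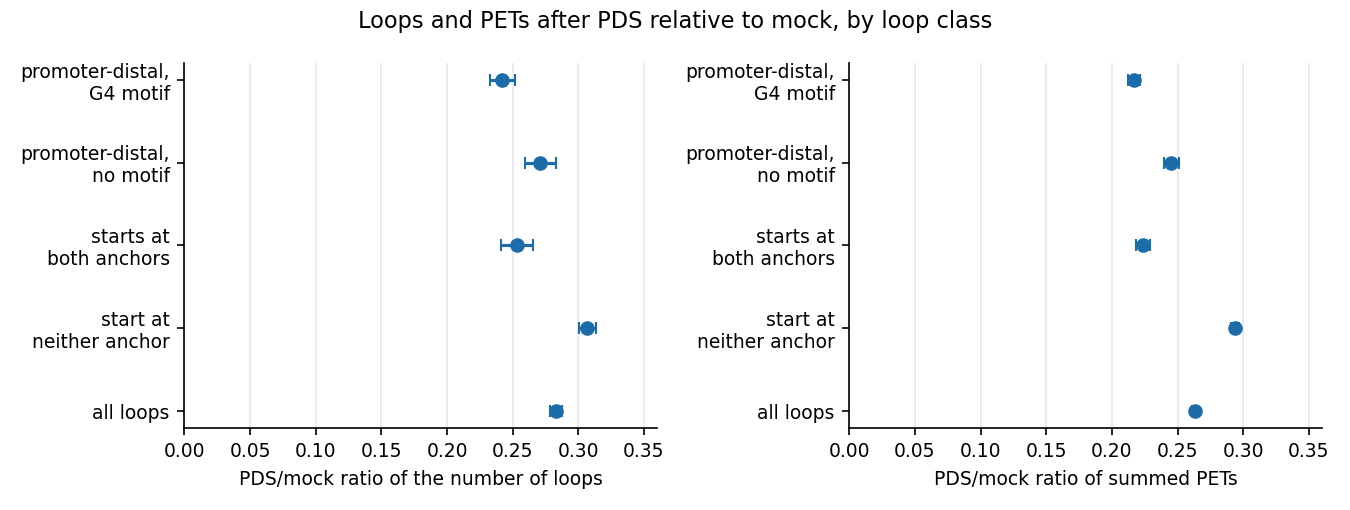
PDS/mock ratio of the number of loops (left axis panel) and of PETs summed over loops (right panel) for 4 loop classes and all loops, with points for the ratio and bars for 95% counting intervals. Motif loops had the lowest ratio in both panels, 0.242 for loops and 0.217 for PETs, against 0.271 and 0.245 without a motif.

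PETs gave the same order as loop numbers. Summed over the listed motif loops they came to 47036 in mock and 10207 after PDS, a ratio of 0.217 (0.212 to 0.222). Without a motif the sums were 37352 and 9156, a ratio of 0.245 (0.240 to 0.251). The mean motif loop held 3.84 PETs in mock and 3.44 after PDS, and the highest counts were 21 and 12.

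The size of the motif difference depended on which promoters were compared. Promoters of the 2 groups differ in more than the motif. The median GC content within 1 kb of the starts was 57.5% for motif loops and 41.7% without, CpG density was 49.0 and 10.5 per kb, and the median anchor held 3 starts against 1. When motif loops were compared with loops without a motif inside 10 classes of GC content, the ratio of ratios was 0.963 (0.887 to 1.05). Within 10 classes of CpG density it was 1.02 (0.945 to 1.10), and within classes of the number of starts 0.963 (0.903 to 1.03). Inside classes of GC content and number of starts together it was 1.00 (0.922 to 1.09). All of these intervals include 1, and that within GC classes also includes the unstratified 0.894. The part of promoter composition in the difference was not tested beyond these values. In the lowest class of CpG density, below 10 per kb, the ratio of ratios was 1.18 (1.01 to 1.38), above 1. The definition of the promoters had a like effect. When a gene was given its canonical start alone the ratio of ratios was 1.01 (0.921 to 1.10). It was 0.977 (0.916 to 1.04) when a motif anywhere inside the promoter anchor counted, in place of one within 1 kb of a start.

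Other properties left the comparison where it was. Among 10 classes of promoter anchor width the ratio of ratios was 0.888 (0.837 to 0.942), and within 10 classes of loop distance 0.893 (0.842 to 0.947). It was 0.877 (0.824 to 0.934) within 10 classes of the GC content of the distal anchor, and 0.905 (0.853 to 0.961) within chromosomes. The stratified comparisons were chosen after the lists had been examined.

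**Figure D2:**
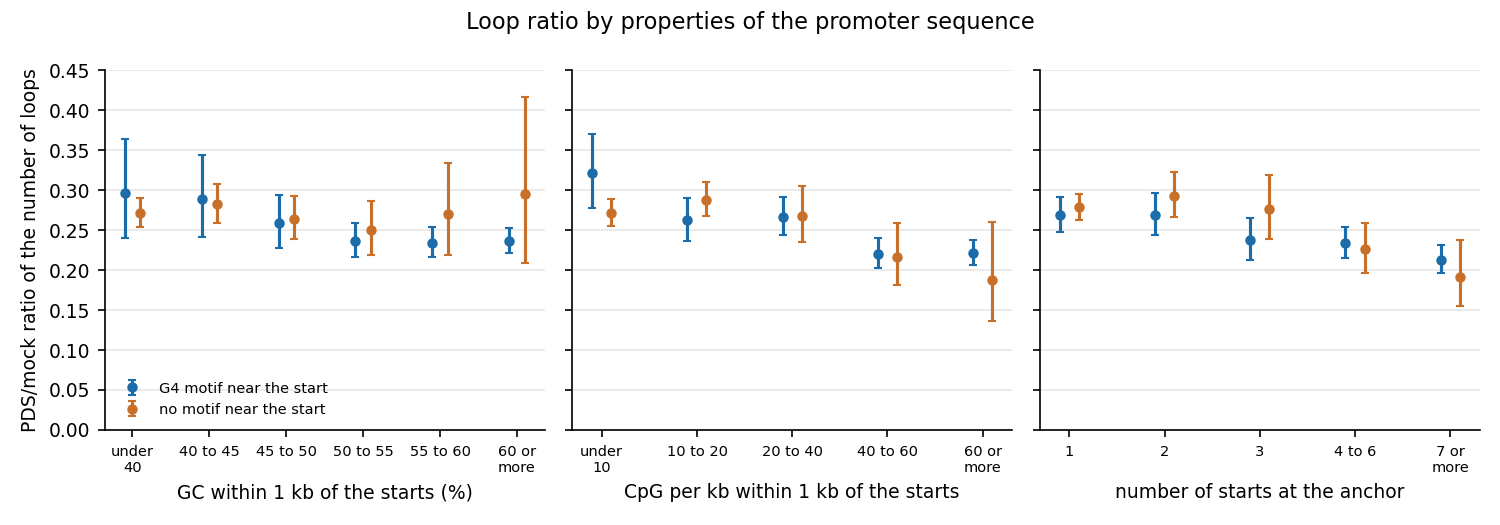
PDS/mock ratio of the number of loops (vertical axis) by GC content, CpG density and number of starts at the promoter anchor (horizontal axes), for motif loops (blue) and loops without a motif (orange), with 95% counting intervals. In both groups the ratios were lowest at high CpG density and at many starts, and at the same class the intervals of both groups overlapped in all 16 classes shown.

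The PDS/mock ratio was higher at promoters with little CpG. Motif loops had a ratio of 0.321 (0.278 to 0.371) below 10 CpG per kb and 0.222 (0.207 to 0.238) at 60 or more, and loops without a motif had 0.272 (0.256 to 0.289) and 0.188 (0.136 to 0.260). At anchors with 1 start the motif ratio was 0.268 (0.247 to 0.291), and at anchors with 7 or more starts it was 0.213 (0.196 to 0.232). Loops without a motif showed the same fall, from 0.279 (0.263 to 0.295) to 0.192 (0.155 to 0.237). Anchor width had the opposite course, since motif loops with promoter anchors under 5000 bp had a ratio of 0.170 (0.153 to 0.188) and those of 15000 bp or more 0.322 (0.296 to 0.350). Without a motif these ratios were 0.204 (0.184 to 0.227) and 0.346 (0.315 to 0.381). A wide anchor collects PETs from more sequence, and the part this plays was not tested.

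No gradient was seen with the number or make-up of the motifs. Promoters with 1, 2, 3 to 4, 5 to 8 and 9 or more motifs had ratios of 0.247, 0.241, 0.231, 0.247 and 0.245, and all their intervals overlapped. Among the promoters with 1 motif, which had 3709 loops in mock and 916 after PDS, the ratio was 0.244 (0.221 to 0.269) with the G-rich strand on the coding strand and 0.250 (0.225 to 0.279) with it on the template strand. A motif upstream of its nearest start gave 0.257 (0.232 to 0.285) and one downstream 0.238 (0.215 to 0.263). Motifs with at most 9 spacer bases in all had 0.231 (0.209 to 0.256) and those with more had 0.264 (0.239 to 0.293). None of these pairs of intervals was separate.

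Few loops were listed in both conditions, with or without a motif. Of the mock motif loops, 1272 (10.4%, 9.85 to 10.9%) were also in the PDS list, against 11% of all mock loops and 10.6% (10.0 to 11.2%) without a motif. The share for mock motif loops was 24.1% with anchors extended by 5 kb and 6.32% with at least 5 PETs in both lists. Read from the other side, 42.9% (41.1 to 44.6%) of the PDS motif loops were also in the mock list, against 39.1% of all PDS loops and 39.2% (37.4 to 41.1%) without a motif. The other 1696 PDS motif loops were not listed in mock, and 10985 mock motif loops were not listed after PDS.

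How often a loop was seen again followed its PETs in mock. Of the 7154 motif loops with 3 PETs, 5.03% (4.55 to 5.56%) were also listed after PDS. The share rose to 11.6% at 4 PETs, 16.4% at 5 and 31.4% at 6 to 9. It reached 50.4% (41.4 to 59.4%) at 10 or more, which is 58 of 115 loops. Loops without a motif gave 5.77%, 11.6%, 16.2%, 31.4% and 55.7% over the same classes. Only 4 motif loops held 10 or more PETs after PDS.

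**Figure D3:**
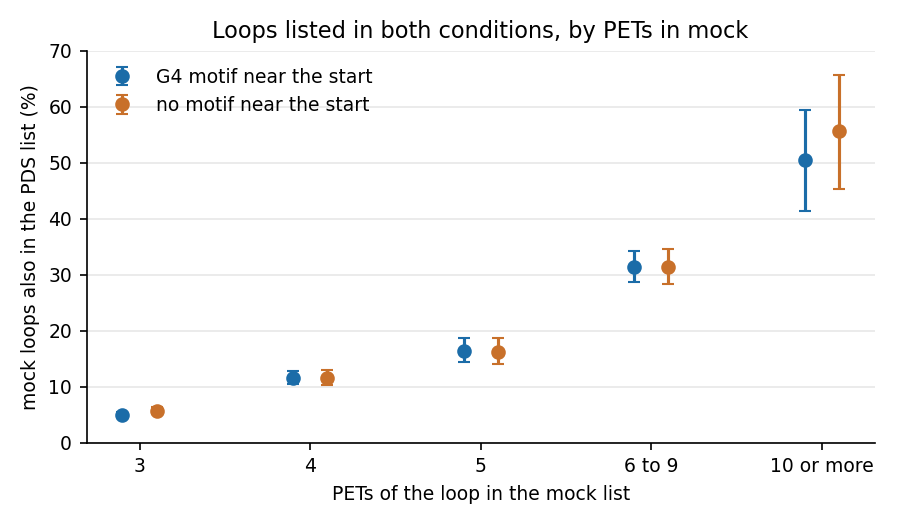
Percent of mock loops also present in the PDS list (vertical axis) by the PETs of the loop in mock (horizontal axis), for motif loops (blue) and loops without a motif (orange), with 95% Wilson intervals. Both groups rose together, from about 5.03 and 5.77% at 3 PETs to 50.4 and 55.7% at 10 or more.

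Of the 1272 shared motif loops, 755 had fewer PETs after PDS, 361 had the same number and 156 had more. Over all 7333 shared loops these numbers were 4057, 2209 and 1067, and over the 1044 without a motif 574, 332 and 138. At least 2-fold fewer PETs were found in 245 of the shared motif loops (19.3%), against 17% of all shared loops. On the log2 scale the PDS/mock quotient of PETs had a median of -0.42 and quartiles of -0.74 and 0, against a median of -0.32 without a motif. Since sharing needs 3 PETs in each list, the 360 motif loops with 3 mock PETs could not be lower. To allow for this minimum, a PDS/mock factor was estimated over shared loops with 7 to 19 summed PETs. It was 0.466 (0.435 to 0.498, 999 loops) for motif loops and 0.483 (0.448 to 0.520, 794 loops) without a motif, and these intervals overlap.

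The strongest loops show the range of outcomes. The loop of DHRS4L2, a gene of the short-chain dehydrogenase family, had the most PETs, 21 in mock and 12 after PDS, but 69.4% and 53.2% of the 31-base sequences in its anchors are found at several places in the genome, and its reads may come from related copies. HNRNPC, a nuclear RNA-binding protein, looped 8.39 kb into its own gene with 20 PETs in mock and 5 after PDS. TCF15, a bHLH transcription factor, had 17 and 6. TMEM114, a transmembrane protein gene, joined a segment 93.3 kb upstream with 16 and 5.

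Other strong loops held fewer PETs after PDS or left the list. FAM210B looped 15.1 kb into AURKA, a mitotic kinase, with 16 PETs in mock and 4 after PDS. KIFC3, a kinesin, had 14 and 3. Loops of GSDMA, a pore-forming protein, of ARHGEF18 and of SRC, a tyrosine kinase, held 15 PETs each in mock, and none of them was listed after PDS. The ARHGAP5 loop that runs 21.9 kb upstream, with 14 PETs in mock, was not listed either. Not being listed sets no exact count.

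Among the 5 loops with the most PDS PETs, ZFHX3 alone had more after PDS than in mock. This transcription factor gene looped 56.9 kb downstream into its own body with 5 PETs in mock and 11 after PDS. At the anchor of CARMIL3, CPNE6 and NRL, 1 loop had 13 PETs in mock and 10 after PDS, another had 12 and 9, and another of 13 was not listed after PDS. Of the 31-base sequences in the distal anchors of the first and the last of these, 34.7% and 41.0% occur more than once in the genome. SLC13A3, a dicarboxylate transporter, had 13 PETs in mock and 10 after PDS. The strongest loops found in the PDS list alone belonged to EIPR1 with 8 PETs, CAPN2, a calpain protease, with 7, BCR with 7, CDC42BPA, a kinase, with 6 and ARHGAP12 with 6. These members were ranked by the counts that are described, so they carry no test.

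Loops were spread over many promoter anchors. The 12257 mock motif loops used 7010 promoter anchors and the 2968 PDS loops used 2351, a ratio of 0.335 (0.320 to 0.351), against 0.367 (0.349 to 0.385) without a motif. Most anchors had few loops, with 4224 holding 1 mock loop and 280 holding 5 or more. Fewer loops after PDS were found at 6262 of 7607 anchors, the same number at 658 and more at 687, of which 90 had a loop in mock. These last counts have no counterpart here for anchors without a motif.

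CEBPB, a transcription factor of the hepatic acute-phase response, had the most. Its anchor at chr20:50185026-50203796 held 25 loops with 109 PETs in mock and 7 with 23 after PDS. Single CEBPB loops ranged from 3 to 8 PETs in mock, with a median of 4, and from 3 to 4 after PDS. All 7 PDS loops were also in mock, 5 of them with fewer PETs and 2 with the same number. Distances ran from 13.9 to 411.8 kb, and 17 of the 25 distal anchors lay outside protein-coding genes and lncRNA starts.

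TNFAIP3, which encodes a deubiquitinase that restrains NF-κB signalling, had 12 loops with 60 PETs in mock and 5 with 21 after PDS. Its strongest loop, 14.1 kb into its own gene, had 10 PETs in mock and 7 after PDS, and 1 reaching 159.7 kb upstream had 7 and 4. EMP2, a tetraspan membrane protein, went from 11 loops with 59 PETs to 6 with 25, among them a loop of 15.2 kb with 13 and 7. ID2, an inhibitor of bHLH factors, had 12 loops with 59 PETs and 4 with 16. SLC23A2, a vitamin C transporter, had 12 with 58 and 5 with 17, and CRACDL 13 with 57 and 5 with 19.

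Other anchors held fewer loops after PDS. TMEM114 had 18 loops with 85 PETs in mock and 4 with 17 after PDS, and the anchor of CARMIL3, CPNE6 and NRL 12 with 78 and 2 with 19. USP7, a deubiquitinase, had 10 with 57 and 2 with 9. ARHGAP5 had 9 with 58 in mock and 1 loop of 4 PETs after PDS, which was not among the 9. Over the 10 anchors with the most mock PETs the loops went from 134 to 41 and the PETs from 680 to 170, and the PDS/mock ratio of PETs ran from 0.0690 at ARHGAP5 to 0.424 at EMP2. These anchors were picked on their mock counts, and all 10 lie on chromosomes 2, 6, 14, 16 and 20, of which HepG2 is known to carry extra copies in whole or part.

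**Figure D4:**
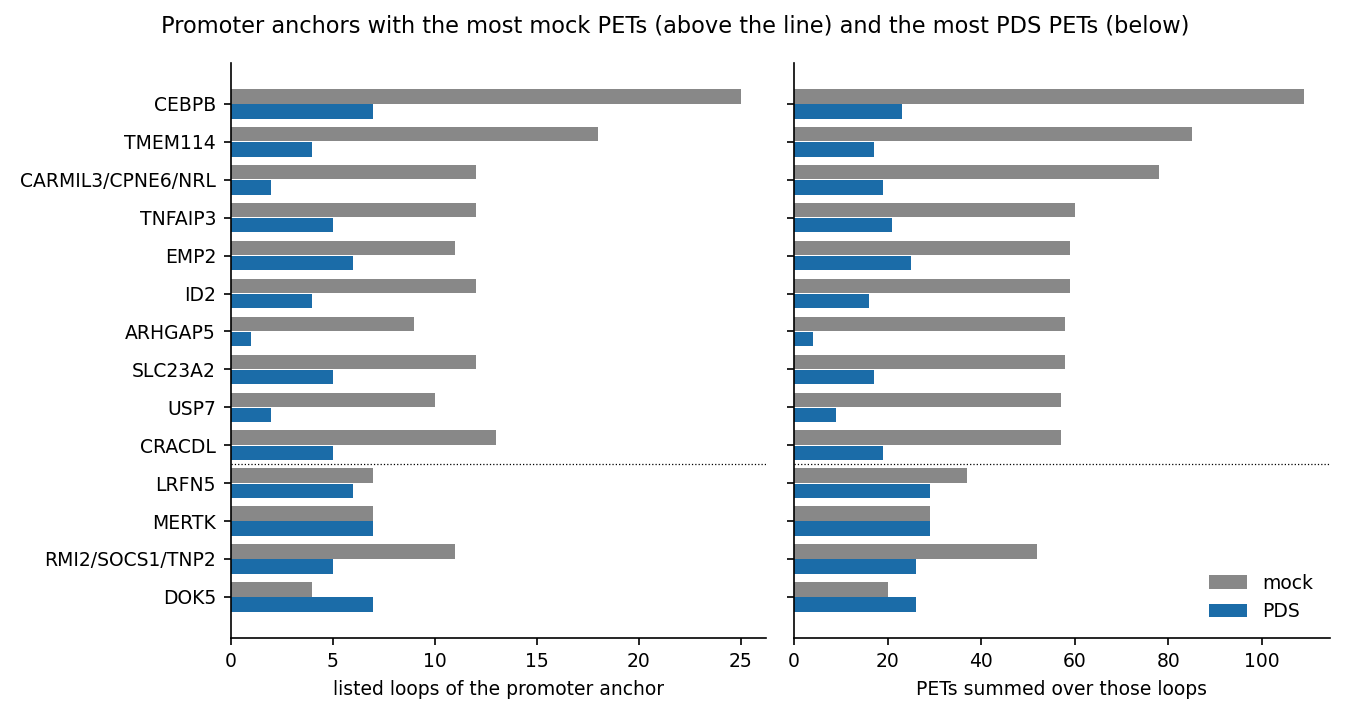
Listed loops (left axis panel) and PETs summed over them (right panel) in mock (grey) and after PDS (blue) for the 10 promoter anchors with the most mock PETs, above the dotted line, and the 4 with the most PDS PETs, below it. CEBPB fell from 25 loops to 7, while MERTK had 7 in both and DOK5 went from 4 to 7.

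Of the 280 anchors with 5 or more mock loops, a group picked on its mock counts, 278 had fewer loops after PDS and 2 had the same number. These numbers were not counted for anchors without a motif, so they show nothing particular to the motif. Of the 280, 65 had none after PDS, against 39 of 221 such anchors without a motif. Of the 27 with 10 or more mock loops, 3 had none after PDS, against 1 of 15 without a motif. VEGFA, the vascular endothelial growth factor, had 12 loops of 3 to 6 PETs in mock, 51 in all, and its anchor holds 13 motifs. The PDS list did hold 1 loop at a VEGFA start, which was not a motif loop. ADGRG6, an adhesion receptor, had 10 loops with 55 PETs, and ZFP36L2, a factor of mRNA decay, 11 with 42. The ADGRG6 anchor holds 1 motif.

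Some anchors had about as many loops after PDS as in mock, or more. MERTK, a receptor tyrosine kinase for the uptake of dying cells, had 7 loops with 29 PETs in both lists, of which 3 were the same loops. DOK5, a signalling adaptor, had 4 loops with 20 PETs in mock and 7 with 26 after PDS. Of its 7, 5 were in the PDS list alone, including 4 with 3 PETs each that reached 132.4 to 232.9 kb. Some loops that ran upstream from the MERTK and DOK5 anchors ended inside the same gene. These anchors therefore lie at starts inside the gene and not at its first start. SOCS5 had 3 with 10 and 5 with 20, and none was shared. LRFN5, a synaptic adhesion protein, had 1 loop fewer, 7 with 37 in mock and 6 with 29 after PDS. The anchor that includes SOCS1, a suppressor of cytokine signalling, had fewer after PDS, 11 with 52 and 5 with 26.

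**Figure D5:**
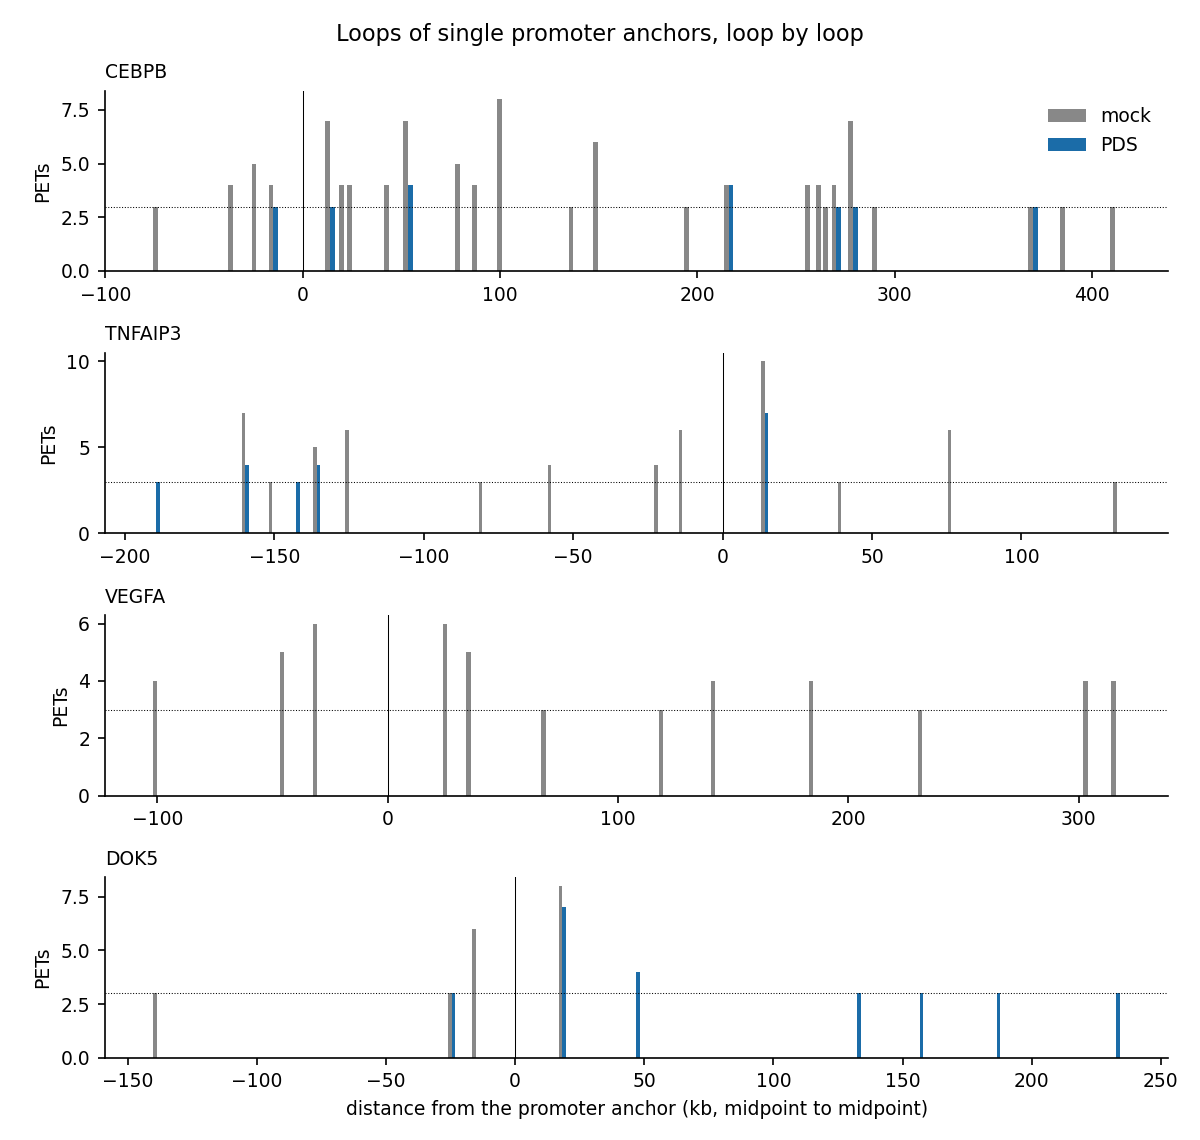
PETs of each loop (vertical axis) by distance of the distal anchor from the promoter anchor (horizontal axis, kb, positive toward higher coordinates) for CEBPB, TNFAIP3, VEGFA and DOK5, in mock (grey) and after PDS (blue, drawn beside the mock bar), with the minimum of 3 PETs dotted. Only motif loops are drawn. VEGFA has mock bars only, whereas 5 of the 9 DOK5 loops have PDS bars only.

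The distal anchors lay mostly in genes. The genes of a promoter were those with a motif near a start for motif loops, and all genes at the anchor for the others. The shares in the promoter's own gene and in another gene are therefore not like measures between the 2 groups. In mock, 42.8% (41.9 to 43.7%) of motif loops ended in the body of the gene of the promoter itself, against 61.2% (60.2 to 62.2%) without a motif. A further 19.8% ended in another protein-coding gene (15.6% without a motif), 5.85% at a lncRNA start outside such genes (2.77%) and 31.5% elsewhere outside genes (20.4%). After PDS the shares for motif loops were 43.4%, 19%, 5.56% and 32.0%, so the make-up was close to that in mock. The ratios for these 4 kinds ran from 0.230 to 0.246, with overlapping intervals.

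Direction and distance showed modest differences. Loops that ran upstream of the start, some of them inside the same gene, had a ratio of 0.259 (0.244 to 0.274). Those that ran downstream had 0.235 (0.221 to 0.250), and those at anchors with starts on both strands 0.189 (0.162 to 0.220). The last was also low without a motif, at 0.193 (0.144 to 0.258). Direction was judged from the genes with a motif near a start for motif loops, and from all genes at the anchor for the others. The median distance was 20.7 kb in mock and 19.6 kb after PDS. Motif loops under 10000 bp had a ratio of 0.215 (0.196 to 0.236), those of 10000 to 20000 bp 0.278 (0.259 to 0.298) and those of 100000 to 200000 bp 0.201 (0.174 to 0.233).

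A motif at the distal end as well went with a higher ratio. Of the motif loops, 52.7% (51.8 to 53.6%) had a motif in the distal anchor too in mock and 56.8% (55 to 58.6%) after PDS, and without a motif at the promoter these shares were 39.8% and 43.1%. The loop ratio was 0.221 (0.208 to 0.235) with none there and 0.284 (0.257 to 0.313) with 4 or more. Loops without a motif at the promoter had 0.256 (0.242 to 0.271) and 0.293 (0.246 to 0.349). Wide distal anchors hold more motifs, and within each of 4 width classes the ratio was higher with a distal motif, with intervals that overlapped. For anchors of 5000 to 10000 bp, for example, the ratios were 0.250 (0.230 to 0.271) and 0.224 (0.204 to 0.247).

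Over the 22 autosomes the ratio for motif loops ran from 0.172 on chromosome 9 to 0.317 on chromosome 20, with a median of 0.234. It was lower than the ratio without a motif on 14 of 22. The interval of the ratio of ratios lay below 1 on 4 of them, chromosomes 1, 7, 9 and 14, and above 1 on 0. On chromosome 1 the ratios were 0.178 (0.152 to 0.208) with and 0.241 (0.201 to 0.288) without a motif.

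Lists of genes give the background of known promoter G4 genes and of hepatocyte function. Genes with well-studied promoter G4s, such as VEGFA, CCND1 and BCL2, numbered 18, and all 18 carried a motif by this rule. Of them 14 had motif loops in mock, 51 with 213 PETs in all, and 3 had them after PDS, 4 loops with 14 PETs. That is a ratio of 0.0784 (0.0295 to 0.209), against 0.242 for all motif loops. Loops of any class at a start were listed for 15 of the 18 genes in mock and for 10 after PDS. The same share over all protein-coding genes was not counted. SRC had 10 loops with 59 PETs in mock and 2 with 8 after PDS, JUN 6 with 19 and 1 with 3, and AXIN2, a Wnt pathway scaffold, 3 with 11 and 1 with 3.

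The remaining genes of this list had no motif loop after PDS. CCND1, the cyclin of G1 phase, had 5 with 22 PETs in mock, and MYB, a transcription factor, and MDM2, the p53 ubiquitin ligase, had 3 with 10 each. The MDM2 loops held 3, 4 and 3 PETs. The first joined the anchor with the motif stretch shown above to SLC35E3, 19.2 kb away, and the others ran from 1 anchor at starts further downstream in the gene. HIF1A, RET, TERT, BCL2 and PDGFA had 1 loop each, of 3 to 5 PETs, and KIT, PDGFRB, HRAS and FGFR2 had none in either list. Loops of 3 or 4 PETs in mock are too weak to show a loss one by one. The 12 VEGFA loops and 10 SRC loops share anchors, so the 51 loops are not 51 separate observations.

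Genes of cholesterol and fatty acid synthesis also had few motif loops after PDS. Of 20 genes, 15 had motif loops in mock and 1 after PDS, with 29 loops and 1 loop, a ratio of 0.0345 (0.00594 to 0.20) against 0.242 for all motif loops. Over all 20033 protein-coding genes, 6737 had motif loops in mock and 2411 after PDS. Loops of any class at a start were listed for 17 of the 20 in mock and for 5 after PDS, and the share over all protein-coding genes was not counted for this measure. Loops of a gene can share an anchor, as some of those at SREBF2 did. SREBF2, the regulator of the sterol pathway, had 6 loops with 24 PETs in mock, and SCD, a fatty acid desaturase, had 2 with 15, and none of them was listed after PDS. ACACA, which makes malonyl-CoA, had 3 with 14 in mock. Its PDS loop held 5 PETs, and the same loop held 3 in mock.

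Transcription factors of the hepatocyte stood near the average of motif loops. They had 55 loops in mock and 16 after PDS over 19 genes, a ratio of 0.291 (0.168 to 0.504), of which CEBPB gave 25 and 7. FOXA2, a pioneer factor, had 7 with 35 PETs in mock and 3 with 9 after PDS, and its loop of 7.19 kb went from 13 PETs to 3. HNF4A, a nuclear receptor of liver identity, had 4 with 17 and 1 with 3, and PPARA, a regulator of fat oxidation, 3 with 10 and 2 with 7. Without CEBPB the list held 30 loops in mock and 9 after PDS.

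Immediate early genes had 32 motif loops in mock and 7 after PDS, a ratio of 0.219 (0.0986 to 0.485). DUSP1, a phosphatase of MAP kinases, had 5 with 24 PETs in mock and none after PDS, and EGR1, a zinc finger factor, had 4 with 20 and 1 with 3. FOSL2, a partner of JUN, went the other way, from 1 with 4 to 2 with 6. Genes of helicases linked to G4s had 16 and 2 loops, a ratio of 0.125 (0.0320 to 0.488), and the one at BRIP1 was shared, with 5 PETs in mock and 3 after PDS. Genes of secreted liver proteins had 17 and 4, a ratio of 0.235 (0.0830 to 0.667), and ALB and AFP had no motif near a start and so no motif loop.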

How the data were processed

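POLR2A HiChIP-seq covered 4 libraries of HepG2 cells, 2 of them mock-treated and 2 exposed to 20 µM PDS over 24 h. The authors deposited whole-number counts of PETs per loop in 1 list for each condition, with at least 3 PETs per loop and no scaling for depth. The lists name no replicate and were taken to combine them. Per the submitters' processing notes, HiC-Pro 3.1.0 and the build GRCh38 were used. By the study's methods, duplicate reads were dropped and the rest placed on MboI fragments. The loop caller and the way of combining replicates are not given in the sources used here. The depth per sample is unknown.

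Members were found with GENCODE 44 starts of any transcript of a protein-coding gene. Loops with identical anchors in both lists were taken as shared, which equals a match by at least 1 bp at both anchors (bedtools 2.31.1). Distances are between anchor midpoints. Ratios of loop numbers carry 95% intervals (Wilson, on the PDS part of both numbers), and ratios of ratios carry log-scale intervals, by the Mantel-Haenszel method within classes. The factor over shared loops is a binomial split of 7 to 19 summed PETs with a 95% likelihood interval. These estimates were tested on simulated data. Named genes were those at the 10 promoter anchors with the most mock PETs, at the 10 strongest mock loops, the 5 strongest PDS loops and the 5 strongest loops of each list alone, and genes of the lists. Anchors with 10 or more mock loops and none after PDS, and those with many PDS loops, were added after their values were seen. The members and lists were chosen with earlier results of these data known. Alternatives changed the PET minimum, starts, window, spacers, motif number, distances, chromosomes, unit and matching. Scripts ran in Python 3.11.15 with scipy 1.17.1, pandas 2.3.3, numpy 2.4.6, pysam 0.24.0 and matplotlib 3.10.9, beside samtools 1.23.1.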

Additional observations from a re-analysis of the deposited data

How the results depend on the processing

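No paired analysis was possible because each list covers a whole condition and no value per replicate was used here. For the same reason no replicate was left out. With at least 4 or at least 5 PETs in both lists, the PDS/mock ratio of the number of motif loops was 0.160 or 0.122, the ratio over loops without a motif 0.816 or 0.966, the share of mock loops also listed after PDS 7.74% or 6.32%, and the factor 0.516 or 0.533. The ratio of loop numbers was 0.253 when a motif anywhere inside the promoter anchor counted, in place of one near a start. It was 0.211 without chromosomes 2, 6, 14, 16, 17 and 20, 0.335 over promoter anchors and 0.217 over PETs. The ratio over loops without a motif turned from below to above 1 with canonical transcripts (1.01), within classes of CpG density (1.02) and within classes of GC and starts together (1.00). It was 0.977 with a motif anywhere inside the anchor in place of one near a start, 0.963 within GC classes and 0.963 within classes of start number. The share of mock loops also listed after PDS was 7.28% beyond 20 kb, 7.63% without those 6 chromosomes, 9.72% without chromosome 20 and 24.1% with anchors extended by 5 kb, and that extension gave a factor of 0.541. With at least 2 motifs the factor was 0.426. The causes were not tested. The other alternatives stayed inside the main 95% interval, 33 of 39 for the ratio, 40 of 48 for the ratio over loops without a motif, 32 of 38 for the share and 35 of 39 for the factor. Leaving out 1 of 23 chromosomes at a time gave 0.234 to 0.248 for the ratio and 0.878 to 0.921 for the ratio over loops without a motif. Low counts limit what single loops can show, since 58.4% of mock motif loops had 3 PETs.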

Other observations

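Of 26 ribosomal protein genes, 16 had a motif near a start and 4 had promoter-distal loops with a motif in mock, against 6737 of all 20033 protein-coding genes. These were 10 loops with 50 PETs, while the PDS list held 2 with 6. RPL3 had 4 with 22 PETs in mock and 1 with 3 after PDS, and RPL10A 2 with 11 and 1 with 3. Loops of any kind at a start were listed for 22 of the 26 genes in mock and for 8 after PDS, without a count over all protein-coding genes to set beside them. Among the secreted liver proteins, SERPINA1, a protease inhibitor, had 1 loop with a motif in both lists, with 3 PETs in mock and 4 after PDS. APOB, the main protein of LDL, had 3 with 10 in mock and 1 with 3 after PDS, which was not among the 3.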
